A study of Mus musculus with 10 samples.

Results

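Bone marrow mesenchymal stem cells (BM-MSC) labelled as lacking Rb1 and Trp53 were compared with adipose-derived mesenchymal stem cells (ASC) carrying the same labelled loss, across autosomal genes. Of 34717 names on the array, 22596 genes were bright enough to be tested, and the 21528 of them on the 19 autosomes are described here. The comparison rests on 4 single-colour oligonucleotide arrays, 2 of null BM-MSC and 2 of null ASC, each from its own culture. Mesenchymal stem cells are fibroblast-like cells that can form bone, cartilage and fat, and those of marrow and of fat keep marks of the place they came from. Rb1 encodes the retinoblastoma protein, which holds E2F factors in check at the entry into DNA replication. Trp53 encodes p53, which halts the cell cycle or triggers death after damage, and loss of both genes is a common route to sarcoma.

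All cells were on the FVB background. By the growth protocol the null cells carried Rb1 and Trp53 alleles flanked by loxP sites and spent 10 days in osteogenic differentiation medium. An adenovirus then brought in the Cre recombinase under the CMV promoter, which is active in most cell types. The source labels speak instead of double-null mice, and which of these holds cannot be told from the labels. Null BM-MSC were labelled tumorigenic and null ASC non-tumorigenic. Wild-type (WT) BM-MSC and WT ASC, with 2 arrays each, served to ask whether the same tissue difference was present without the loss of either gene; their labels do not mention osteogenic priming. A line from a tumor of null BM-MSC entered the model for its spread and for the brightness filter on genes. All cells were collected in exponential growth between passages 2 and 5, and whether duplicate cultures came from separate mice is not stated. The series asked whether the stage of differentiation at which both genes are lost shapes the sarcoma that follows.

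Between 53.3% and 58.4% of spots were well above background on each of the 10 arrays, and none was saturated. A level below is a log2 signal over the array's 75th percentile, and a difference is null BM-MSC minus null ASC in log2 units, with the SE of the limma fit. A gene was called where its p-value, adjusted over all genes tested, was under 0.05. Duplicates correlated across genes at r = 0.996 in null BM-MSC and 0.994 in null ASC. The means of null BM-MSC and null ASC correlated at 0.933, against 0.982 between null and WT BM-MSC and 0.983 between null and WT ASC. The null arrays and the WT arrays shared a slide on which both ASC groups lay in columns 1 and 2 and both BM-MSC groups in columns 3 and 4, so tissue and column cannot be told apart.

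The targeted genes were read first. The Rb1 level was 0.65 and 0.54 in null BM-MSC, against -1.91 and -1.97 in null ASC. WT BM-MSC stood at 1.90 and 1.92, and WT ASC at 1.31 in both arrays. Rb1 was thus below WT in each null group, and by less in null BM-MSC, which kept 40.2% of the WT signal of its tissue where null ASC kept 10.5%. For Trp53 the levels were -0.89 and -1.11 in null BM-MSC, and -4.49 and -5.12 in null ASC, of which 1 array was well above background. Null BM-MSC kept 29.3% of the WT Trp53 signal and null ASC 1.71%. The null groups differed by 2.53 ± 0.05 for Rb1 (adjusted p = 1.99e-07) and by 3.80 ± 0.20 for Trp53 (adjusted p = 9.05e-06). These values are carried by the following probes, shown as the array designed them, on the minus strand of chr14:73595408-73595467 for Rb1 and the plus strand of chr11:69404204-69404263 for Trp53 (mm9).
Rb1 probe: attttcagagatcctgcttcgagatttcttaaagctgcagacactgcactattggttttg
Trp53 probe: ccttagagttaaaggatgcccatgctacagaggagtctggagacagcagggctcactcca
Where each probe lies relative to the flanked exons is not given in the files, so the levels do not measure the excised share of alleles. The 2 null groups therefore differ in tissue, in the labelled tumorigenicity and in the remaining signal of both targeted genes. They also differ in the signal of sex-linked genes, given next, and all these differences cannot be told apart.

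Signals of the sex-linked genes Xist and Ddx3y differed between the null groups as well. Xist, the RNA that coats the inactive X chromosome, was at -4.20 and -4.55 in null BM-MSC and at 4.55 and 4.42 in null ASC. The Y-linked Ddx3y was at 2.00 and 1.89 in null BM-MSC and at -1.46 and -1.59 in null ASC. In WT cells Ddx3y was at 1.66 and 1.64 in BM-MSC and at -0.48 and -0.66 in ASC, and Xist at 2.05 and 2.20 in BM-MSC and at 4.67 and 4.19 in ASC. Null and WT BM-MSC thus differed in Xist, so the WT comparison was not matched to the null one in this gene. The part of these genes or of sex in the autosomal differences was not tested.

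Differences between the null groups were widespread. The fit called 11957 of 21528 genes, or 55.5%, of which 5642 (26.2%) were higher and 6315 (29.3%) lower in null BM-MSC. With a median SE of 0.0939, small differences passed, and the median absolute difference of all genes was 0.388. A difference of at least 2-fold was found for 1990 higher genes (9.24%) and 2084 lower ones (9.68%), and of at least 16-fold for 278 and 324. The 2 null BM-MSC arrays lay above or below both null ASC arrays for 79.1% of all genes tested, and for all 4074 called genes of at least 2-fold. Counts within gene groups are read below against these shares. The same fit called 54.3% of genes between WT BM-MSC and WT ASC, and for 31.8% it called the null tissue difference as unlike the WT tissue difference.

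Osteocalcin genes were among the 12 largest measurable differences on the marrow side, of which that of Eva1c was the largest. Osteocalcin, the bone matrix hormone that osteoblasts secrete, is encoded in mice by neighbouring genes, and Bglap2 stood at 5.71 and 5.66 in null BM-MSC against -3.91 and -4.22 in null ASC, a difference of 9.75 ± 0.14 (adjusted p = 6.23e-08). Its neighbours Bglap3 (9.47 ± 0.14) and Bglap (8.56 ± 0.12) were higher too, although these near-identical copies may share signal and 1 of the 3 Bglap3 probes showed no rise (-0.07). Eva1c was at 6.00 and 5.89 in null BM-MSC and at -5.0 and -4.68 in null ASC, a difference of 10.79 ± 0.16. Both null BM-MSC arrays lay above both null ASC arrays for it and for the other leading genes of this side. S100b, a calcium-binding protein best known from glia, was higher by 10.24 ± 0.18, and Ackr4, a receptor that scavenges chemokines, by 10.06 ± 0.25. Slc13a5, a citrate importer, was higher by 9.75 ± 0.06. The short-chain collagen Col8a2 (8.54 ± 0.18), the secreted Ly6-family protein Slurp1 (8.40 ± 0.69), the membrane protein Lrrc15 (8.37 ± 0.15), the imprinted noncoding RNA H19 (8.33 ± 0.09) and the activin antagonist follistatin, Fst (8.03 ± 0.42), completed the 12. Eva1c, Ackr4, Bglap and Slurp1 were well above background on 1 of 2 null ASC arrays, so the size of those differences depends on how dim signals are read.

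The largest measurable difference on the fat side was that of Plac8, which was at -1.61 and -2.69 in null BM-MSC and at 7.40 and 7.38 in null ASC, a difference of -9.54 ± 0.32 (adjusted p = 1.27e-06). The gut and brain peptide cholecystokinin, Cck, stood at -3.30 and -3.97 in null BM-MSC and at 5.91 and 5.80 in null ASC. Neither gene overlapped between groups, and in both the null BM-MSC duplicates were farther apart than the null ASC duplicates. Aldh1a1, which makes retinoic acid from retinal, was at -1.59 and -2.30 in null BM-MSC and at 7.13 and 7.12 in null ASC (-9.07 ± 0.23). Complement C3 was at -1.61 and -1.81 in null BM-MSC and at 5.64 and 5.87 in null ASC (-7.46 ± 0.10). Rpp25, a subunit of ribonuclease P, differed by -7.08 ± 0.18. The secreted Wnt antagonists Frzb (-9.37 ± 0.53) and Dkk2 (-8.79 ± 0.36), the p53-regulated arrest gene Rprm (-8.53 ± 0.22), the protein convertase Pcsk5 (-7.75 ± 0.49) and Hoxd11 (-7.60 ± 0.78) were each well above background on 1 of 2 null BM-MSC arrays. Hoxa11 and Cdkn2a also belong to these 12 and are described with their groups.

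**Figure D1:**
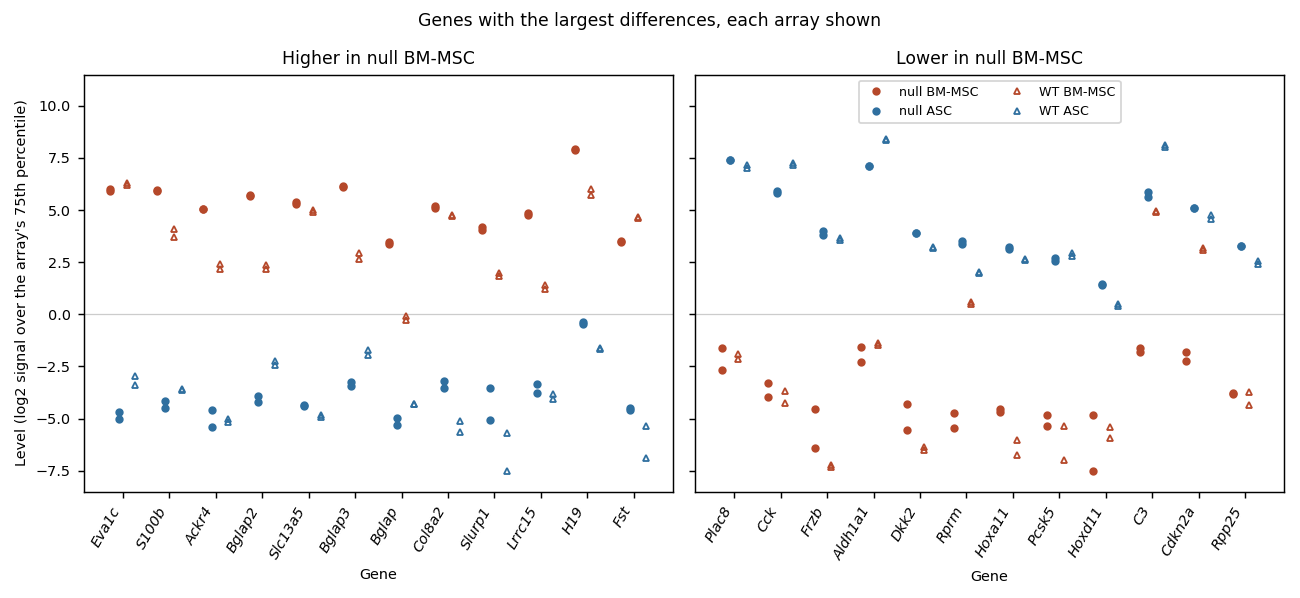
Levels (log2 signal over the array's 75th percentile) of the 12 genes with the largest positive (left) and the 12 with the largest negative (right) differences, 1 point per array, with filled circles for null and open triangles for WT cultures, and red for BM-MSC and blue for ASC. For Bglap2 the null BM-MSC arrays sit at 5.71 and 5.66 and the null ASC arrays at -3.91 and -4.22; for Cdkn2a and Rprm the WT BM-MSC arrays lie closer to the ASC arrays than to null BM-MSC.

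Some genes were bright on one side and dim on the other, that is, not well above background on either array, and for these only a lower bound of the fold is given, set against the dimmest signal that counted as well above background. Well above background on both null BM-MSC arrays and on neither null ASC array were 583 names, and the reverse held for 611. The bone sialoprotein gene Ibsp, which encodes a nucleator of bone mineral, was at 5.71 and 5.67 in null BM-MSC and dim in null ASC, or at least 1963-fold higher (adjusted p = 4.15e-06). Eya2, a transcriptional cofactor of homeobox proteins, was at least 1653-fold higher, and the cartilage collagen Col2a1 at least 1218-fold. The collagenase Mmp13 (at least 1212-fold), the hindlimb factor Pitx1 (at least 1167-fold) and the ribosomal protein paralogue Rpl39l (at least 918-fold) followed. In the other direction Frmd3 was at least 662-fold lower in null BM-MSC (adjusted p = 3.73e-07), standing at 3.99 and 4.23 in null ASC. The progesterone receptor Pgr (at least 496-fold), the Z-line protein Pdlim3 (at least 414-fold), the transcription factor Dmrt2 (at least 330-fold), Saa3, a serum amyloid of the acute phase (at least 234-fold), and the carbonic anhydrase Car12 (at least 210-fold) were lower as well. For Ibsp, Pitx1, Eya2, Col2a1, Rpl39l, Frmd3, Pgr and Dmrt2 the probe was likewise bright in one WT tissue and dim in the other, whereas Mmp13, Saa3 and Car12 were well above background in both WT tissues.

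Hox genes encode homeodomain factors that mark position along the body and the limb, and their 4 clusters behaved differently. Every tested member of the Hox B cluster was lower in null BM-MSC, 8 of 8, and 7 of them by at least 2-fold. Among all genes 29.3% were lower, but the comparison with all genes is uneven. Null ASC showed all 8 members as bright and null BM-MSC only 2, so a higher call was hardly open to most of them. The check on genes bright on all 10 arrays, given below, is free of this limit. Hoxb7 was at -7.10 and -6.77 in null BM-MSC and at 2.33 and 2.31 in null ASC, which makes it at least 191-fold lower (adjusted p = 5.50e-08). Hoxb5 (at least 67.5-fold), Hoxb9 (at least 60.6-fold), Hoxb8 (at least 59.8-fold) and Hoxb2 (at least 55.6-fold) were also dim on both null BM-MSC arrays. Hoxb6 was at -3.23 and -3.63 in null BM-MSC and at 2.67 and 2.55 in null ASC, a difference of -6.04 ± 0.13. Hoxb4 differed by -5.90 ± 0.38 with 1 null BM-MSC array above background, and Hoxb3 by -0.95 ± 0.23. The median of the cluster was -7.13, or -5.91 with the 5 dim members at their bounds, beside -0.01 for all genes. Where only genes bright on all 10 arrays were tested, 2 members were called, and the call of Hoxb3 was lost without null ASC replicate 1 or without null BM-MSC replicate 1.

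The Hox A cluster was split. Hoxa11 was at -4.68 and -4.53 in null BM-MSC and at 3.14 and 3.23 in null ASC (-7.79 ± 0.22), and Hoxa13 was at least 4.72-fold lower with null BM-MSC dim. These are the distal limb members. Hoxa2 (-1.66 ± 0.18), Hoxa3 (-0.82 ± 0.06), Hoxa5 (-1.98 ± 0.10) and Hoxa6 (-1.08 ± 0.15) were lower too, whereas Hoxa7 (1.26 ± 0.05) and Hoxa9 (0.87 ± 0.10) were among the members that were higher. Hoxa4 and Hoxa10 did not pass, at -0.08 ± 0.10 and 0.22 ± 0.09. Hoxa11os, an antisense transcript of the Hoxa11 locus, was at -2.35 and -2.07 in null BM-MSC and at 4.28 and 4.33 in null ASC. Of the Hox D list, which includes the neighbouring gene Evx2, 5 of 7 were lower and none was higher. Hoxd10 was dim in null BM-MSC, at least 177-fold below its 2.16 and 2.26 in null ASC, while Hoxd9 (-1.06 ± 0.07) and Hoxd8 (-0.61 ± 0.08) differed less. Hoxd3 was at least 2.49-fold lower, a call lost in 3 of 4 fits that left out an array of the comparison. Hoxd4 (0.40 ± 0.18) and Evx2 (-0.28 ± 0.15) did not pass.

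The Hox C cluster went the other way. In it 6 of 9 genes were higher in null BM-MSC and 1 lower, with a median of 1.17. Hoxc5 was at -0.81 and -0.85 in null BM-MSC and at -3.02 and -3.12 in null ASC (2.24 ± 0.08). Hoxc11 (1.5 ± 0.12), Hoxc10 (1.29 ± 0.06), Hoxc9 (1.23 ± 0.06), Hoxc8 (1.17 ± 0.11) and Hoxc6 (0.56 ± 0.05) were higher as well. Hoxc13 was lower by a difference of -0.77 ± 0.24, a call that 7 of the alternatives did not keep, and Hoxc4 (0.08 ± 0.08) and Hoxc12 (-0.33 ± 0.79) did not pass. In WT cells 4 of the 9 were higher and 1 lower. By the test of that difference the tissue difference was more positive in null than in WT cells for Hoxc5 (by 1.95 ± 0.11, adjusted p = 9.04e-05), Hoxc8 (1.09 ± 0.16), Hoxc6 (0.47 ± 0.08) and Hoxc4 (1.28 ± 0.12), the last at 0.08 in null and -1.20 in WT cells.

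**Figure D2:**
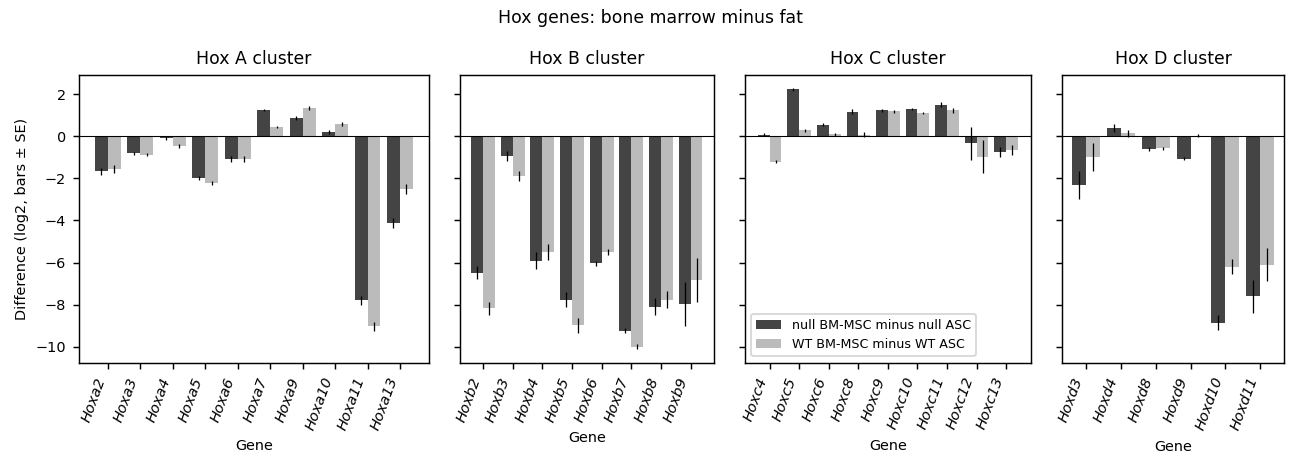
Tissue difference of the Hox genes shown (log2, BM-MSC minus ASC, bars with SE), dark for null and light for WT cells, with 1 panel per cluster. All 8 Hox B bars point down in both genotypes, while Hox C bars between Hoxc5 and Hoxc11 point up in null cells, with Hoxc5 at 2.24 in null and 0.29 in WT cells.

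Other positional factors parted the groups in both directions. Of 39 tested, 18 were higher and 14 lower. Besides Pitx1, the homeobox gene Irx3 was higher (4.22 and 4.17 in null BM-MSC, -3.67 and -3.86 in null ASC, 7.96 ± 0.19), and the stromal forkhead gene Foxd1 was at least 44.4-fold higher. The lateral-plate factors Gata4 (-4.47 and -4.54 in null BM-MSC, 2.46 and 2.47 in null ASC, -6.97 ± 0.21) and Hand2 (at least 26.5-fold lower) stood high in null ASC. Wt1, a factor of the mesothelium and the urogenital ridge, was at least 150-fold lower in null BM-MSC. It is 1 of 11 mesothelial markers, of which 7 of 10 tested were lower and 2 higher. Bnc1 (at least 185-fold) and Lrrn4 (at least 82.3-fold) were lower, whereas Rspo1 was at least 44.5-fold higher and Krt18 higher by 2.80 ± 0.29. The summed signal of the mesothelial markers, in multiples of the array's 75th percentile, was 4.69 to 4.75 in null BM-MSC and 13.1 to 15.8 in null ASC, and their share in the differences was not tested.

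Bone formation needs the transcription factors Runx2 and Sp7, which switch on genes for matrix and for mineral deposition. Among bone matrix and mineralization genes 15 of 21 were higher in null BM-MSC, all 15 by at least 2-fold in the fit, and 1 was lower, with a median of 1.98. Against this, 9.24% of all genes were higher by at least 2-fold. The same lean was present in WT cells, where 14 were higher in BM-MSC and none lower, with a median of 3.03. Beside Ibsp and the osteocalcin genes, the parathyroid hormone receptor Pth1r stood at 3.47 and 3.40 in null BM-MSC and at -2.89 and -3.37 in null ASC (6.57 ± 0.32, adjusted p = 7.49e-06). The list also holds osteomodulin, Omd, a proteoglycan of mineralized tissue, at 5.93 and 5.77 in null BM-MSC and at 0.02 and -0.20 in null ASC (5.94 ± 0.15). The groups of these genes did not overlap. The member that ran the other way was Tnfsf11, the osteoclast-inducing ligand RANKL, which was dim in null BM-MSC, at -4.75 and -5.11 in null ASC, and at least 1.26-fold lower. The collagen chain Col1a1, the most abundant protein of bone and also of fibroblasts, did not pass (0.11 ± 0.10).

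Osteoblast transcription factors gave 11 higher and 4 lower of 19, with a median of 0.91. In WT cells 12 were higher and 5 lower, with a median of 1.00. Sp7 was at 1.38 and 1.39 in null BM-MSC and dim in null ASC, at least 97.7-fold higher (adjusted p = 1.23e-05). Dlx5, a homeobox activator of bone genes, was at least 62.6-fold higher, and the zinc finger gene Zfp521 was higher by 4.02 ± 0.06. Runx2 itself was at -0.36 and -0.45 in null BM-MSC and at -2.72 and -2.32 in null ASC (2.12 ± 0.16). Msx2 (-3.58 ± 0.09), Twist2 (-3.56 ± 0.06), which restrains osteoblast maturation in mice, and Osr2 (-3.46 ± 0.17) were lower. Runx2 is named here, with Col1a1, after its value was seen.

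RUNX proteins bind the core AACCACA, and 5.32% of 31396 autosomal promoters of 300 bases hold it on either strand, or 3.78% of the 15020 promoters of tested genes. These shares are per promoter, whereas below a gene counts if any of its promoters holds the core. Of the 21 tested bone matrix genes 17 had a promoter in the RefSeq table, and 2 of them held the core, Spp1 and Dmp1. Osteopontin, Spp1, a phosphoprotein of bone matrix, was at 3.70 and 3.63 in null BM-MSC and at -2.35 and -1.55 in null ASC (5.62 ± 0.24), and Dmp1, an osteocyte phosphoprotein, was higher by at least 14-fold. Both are shown because they hold the core, in capitals, and were picked after their values were seen. The sequences run from 250 bases before to 50 after the annotated start on the plus strand (GRCm38.p6, RefSeq). They lie at chr5:104434861-104435160 for Spp1 and chr5:104202367-104202666 for Dmp1, in each case the start whose promoter holds the core. The promoter of the other annotated start of each gene does not hold it.
Spp1 promoter: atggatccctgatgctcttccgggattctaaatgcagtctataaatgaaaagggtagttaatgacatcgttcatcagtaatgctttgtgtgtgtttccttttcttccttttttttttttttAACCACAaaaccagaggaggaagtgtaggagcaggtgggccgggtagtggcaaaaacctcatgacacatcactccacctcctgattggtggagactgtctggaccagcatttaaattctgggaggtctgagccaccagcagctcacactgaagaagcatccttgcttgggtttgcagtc
Dmp1 promoter: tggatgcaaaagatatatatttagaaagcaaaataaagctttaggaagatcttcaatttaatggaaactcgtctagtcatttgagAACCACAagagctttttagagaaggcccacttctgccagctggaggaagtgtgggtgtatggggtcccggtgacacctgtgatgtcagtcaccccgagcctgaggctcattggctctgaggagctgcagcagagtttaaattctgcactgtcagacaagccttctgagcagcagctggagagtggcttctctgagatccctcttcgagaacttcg
Counted from the start, the core begins at position -129 in Spp1 and at -165 in Dmp1. A match in letters is a description of the sequence and no evidence of binding.

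Cartilage and smooth muscle genes leaned to the marrow side too. Chondrogenic genes gave 11 higher and 1 lower of 17 (median 0.49). Where only genes bright on all 10 arrays were tested, 7 of them entered and 6 were called, all higher. WT cells gave 11 higher and 2 lower (median 0.92). Beside Col2a1, Comp, a pentameric matrix protein, was at 2.59 and 2.65 in null BM-MSC and at -4.27 and -4.51 in null ASC (7.01 ± 0.41), and the link protein Hapln1 was at least 23.3-fold higher. Among smooth muscle contractile genes 15 of 17 were higher and 1 lower, with a median of 1.65 and 11 higher by at least 2-fold. In WT cells 12 were higher and 2 lower (median 0.79). The chondroitin sulphate proteoglycan Cspg4 was at 3.80 and 3.87 in null BM-MSC and at -2.38 and -2.59 in null ASC (6.32 ± 0.07). The smooth muscle actin Actg2 was at 7.55 and 7.51 in null BM-MSC and at 2.48 and 2.40 in null ASC (5.09 ± 0.08), and the actin-binding proteins Synpo2 (3.17 ± 0.06) and Cnn1 (3.07 ± 0.10) were higher as well. No array of one group reached the other for any of these.

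Integrins and laminins, which tie cells to matrix, gave 20 higher and 8 lower of 29, with a median of 1.07 (0.80 with dim members at their bounds). Itga11, a collagen receptor subunit, was at 8.02 and 7.99 in null BM-MSC and at 3.40 and 3.54 in null ASC (4.53 ± 0.06). Itgb7 (4.41 ± 0.08) and Itga10 (4.41 ± 0.12) were higher too, and Lamc1 (-1.05 ± 0.07) and Itga2 (at least 2.84-fold lower) ran the other way. The tissue difference of this list was more positive in null than in WT cells for 21 genes and more negative for 2, beside 31.8% of all genes called in that test in either direction. Collagens split, with 11 higher and 7 lower of 23. Col24a1 (5.02 ± 0.26), Col8a1 (3.67 ± 0.10) and Col12a1 (3.53 ± 0.05) were higher, although 1 of the 2 Col12a1 probes did not share the sign. Col16a1 (-1.55 ± 0.04) and Col14a1 (-0.94 ± 0.18) were lower. Of the small leucine-rich proteoglycans, which coat collagen fibrils, Aspn was higher by 3.92 ± 0.07 and Prelp at least 10.0-fold, while decorin, Dcn, was lower by a difference of -1.95 ± 0.07. Elastic fibre genes gave 12 higher and 8 lower of 22, led by Ltbp2 (2.64 ± 0.09) and Fbln5 (2.62 ± 0.06) on the marrow side and Mfap4 (-2.16 ± 0.12) and Ltbp4 (-2.0 ± 0.07) on the fat side. Among matrix proteases, of which 8 of 20 were higher and 6 lower, the membrane-bound Mmp14 was higher (1.98 ± 0.08), and the gelatinase Mmp9 lower (-3.74 ± 0.20), with 1 null BM-MSC array above background.

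Interferon-stimulated antiviral genes encode effectors that cells make after interferon binds its receptor. Of 29 tested, 28 were lower in null BM-MSC and none was higher, 27 of them by at least 2-fold, against 9.68% of all genes, and the median difference was -3.49. Oas1a, which makes the signal for RNase L, was at -0.91 and -0.30 in null BM-MSC and at 5.32 and 5.36 in null ASC (-5.95 ± 0.22, adjusted p = 1.92e-06). Its relative Oas2 was at -2.90 and -1.79 in null BM-MSC and at 3.58 and 3.39 in null ASC (-5.83 ± 0.38). Both null ASC arrays exceeded both null BM-MSC arrays by more than 5 log2 units for the 2 genes, and the null BM-MSC duplicates spread more than those of null ASC. Viperin, Rsad2, was at -4.32 and -3.68 in null BM-MSC and at 1.63 and 1.49 in null ASC (-5.56 ± 0.58), and the chemokine Cxcl10 differed by -5.01 ± 0.10. The ubiquitin-like Isg15 was at 4.17 and 4.64 in null BM-MSC and at 7.93 and 7.84 in null ASC (-3.49 ± 0.15). Oas1b did not pass (-0.16 ± 0.06), and it and Isg15 are named after their values were seen. In WT cells all 29 were lower in BM-MSC, with a median of -3.35, and the tissue difference itself was called as differing between null and WT cells for 5 of the 29, or for 11 when one null BM-MSC array was left out, whichever it was, or with normexp background correction.

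The guanylate-binding proteins and immunity GTPases, a family induced by interferon gamma, gave 10 lower and 1 higher of 18, with a median of -0.56. In WT cells 14 were lower and 2 higher in BM-MSC, with a median of -1.59. Gbp3 (-3.17 ± 0.12), Iigp1 (-2.82 ± 0.18) and Irgm2 (-2.44 ± 0.15) were lower in null BM-MSC. Gbp8 was at 0.14 and 0.18 in null BM-MSC and at -4.54 and -5.24 in null ASC, where 1 array was above background, and was higher by 5.05 ± 0.22. It was dim in both WT tissues. MHC class I antigen presentation genes gave 16 lower and 1 higher of 22, mostly by less than 2-fold (median -0.31). WT cells gave 13 lower and 5 higher (median -0.64). In the null comparison 11 were called when arrays were scaled to their median. H2-T24 (-2.41 ± 0.29), H2-T10 (-1.80 ± 0.07), the peptide transporter Tap1 (-1.18 ± 0.12) and the immunoproteasome subunit Psmb10 (-1.12 ± 0.04) differed most, and H2 genes of this family resemble each other closely enough to share signal.

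The interferon-stimulated response element has the core GAAANNGAA, found on either strand in 8.52% of autosomal promoters and 7.12% of those of tested genes, and the gamma-activated site TTCNNNGAA occurs in 8.35% and 7.17%. A promoter was in the table for 21 of the 29 antiviral genes, and 13 of these held the response element core. For the GTPase family it was 10 of 11. The gamma-activated site was held by 6 of these 11 and by 6 of the 21 antiviral genes. The following promoters, chosen after the values were seen, show the core in capitals for genes that were lower together. They come from chr11:58199306-58199605 on the plus strand for Igtp, a GTPase of the family (-2.32 ± 0.14), and from the minus strand of chr4:156200769-156201068 for Isg15, chr12:26456403-26456702 for Rsad2 and chr5:120907476-120907775 for Oas1a (GRCm38.p6, RefSeq).
Igtp promoter: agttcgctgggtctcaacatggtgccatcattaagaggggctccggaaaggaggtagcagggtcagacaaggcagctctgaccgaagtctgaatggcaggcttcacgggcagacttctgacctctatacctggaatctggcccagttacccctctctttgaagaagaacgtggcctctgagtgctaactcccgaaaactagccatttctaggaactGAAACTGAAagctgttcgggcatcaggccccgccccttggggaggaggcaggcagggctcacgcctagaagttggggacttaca
Isg15 promoter: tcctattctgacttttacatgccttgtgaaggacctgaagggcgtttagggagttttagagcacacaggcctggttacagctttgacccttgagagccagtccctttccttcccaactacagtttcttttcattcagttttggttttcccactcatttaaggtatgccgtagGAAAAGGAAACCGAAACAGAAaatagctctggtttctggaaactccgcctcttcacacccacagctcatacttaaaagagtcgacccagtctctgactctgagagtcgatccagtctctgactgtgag
Rsad2 promoter: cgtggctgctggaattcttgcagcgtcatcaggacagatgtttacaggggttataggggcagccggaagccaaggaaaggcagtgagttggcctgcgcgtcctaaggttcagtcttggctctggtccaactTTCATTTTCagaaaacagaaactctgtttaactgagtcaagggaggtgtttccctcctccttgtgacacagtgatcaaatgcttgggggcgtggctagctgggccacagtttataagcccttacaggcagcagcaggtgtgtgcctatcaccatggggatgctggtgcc
Oas1a promoter: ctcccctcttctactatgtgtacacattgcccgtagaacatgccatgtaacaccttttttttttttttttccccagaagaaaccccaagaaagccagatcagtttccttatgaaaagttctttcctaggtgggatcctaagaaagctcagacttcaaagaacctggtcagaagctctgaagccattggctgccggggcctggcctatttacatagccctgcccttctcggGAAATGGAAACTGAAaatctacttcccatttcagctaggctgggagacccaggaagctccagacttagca
In Isg15 and Oas1a several overlapping copies of the core make up the capitals, and in Rsad2 the core lies on the opposite strand. Like the RUNX core, these matches describe letters and not occupied sites.

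Other immune genes were mixed. Chemokine ligands gave 12 lower and 5 higher of 26, with Ccl8 (-3.96 ± 0.13) low, Ccl9 (2.74 ± 0.10) high and Ccl11 at least 3.58-fold lower in null BM-MSC. Complement and acute-phase genes gave 11 lower and 6 higher of 26. Complement C4b was at -2.80 and -2.81 in null BM-MSC and at 1.58 and 1.74 in null ASC (-4.47 ± 0.15), whereas the pentraxin Ptx3 (4.19 ± 0.16) and haptoglobin, Hp (3.12 ± 0.15), were higher. Of interleukins and the IL6 family, 9 of 19 were higher and 10 lower. Il34, a ligand of the macrophage receptor Csf1r, was at 4.34 and 4.29 in null BM-MSC and at -2.51 and -2.73 in null ASC (6.93 ± 0.14), and Il15 was lower (-4.24 ± 0.15) with 1 null BM-MSC array above background.

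The cell cycle lists differed by little per gene and mostly one way. Among E2F targets and DNA replication genes 28 of 36 were lower in null BM-MSC and 2 higher, with a median of -0.45 and 2 lower by at least 2-fold. With each array scaled to its median, 18 were lower and 3 higher. The G1/S cyclin Ccne1 was at 1.91 and 2.01 in null BM-MSC and at 3.33 and 3.36 in null ASC (-1.39 ± 0.07), and the polymerase subunit Pold1 at 2.77 and 2.92 in null BM-MSC and at 3.97 and 3.91 in null ASC (-1.09 ± 0.06). The ribonucleotide reductase subunit Rrm2 (0.31 ± 0.07) and the primase Prim1 (0.21 ± 0.04) were the members called higher. Of mitosis genes 23 of 28 were lower and none higher, with a median of -0.69. The mitotic kinesin Kif2c (-1.32 ± 0.07), the polo-like kinase Plk1 (-1.13 ± 0.09), the anaphase activator Cdc20 (-0.98 ± 0.09) and the centromeric histone Cenpa (-0.90 ± 0.07) differed most.

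In WT cells the same lists ran the other way, with 20 replication genes higher and 4 lower, and 21 mitosis genes higher and 1 lower. The test of the difference between the 2 tissue differences called 32 of 36 replication genes and 27 of 28 mitosis genes, all of them more negative in null cells, beside 31.8% of all genes. With each array scaled to its median the test called 17 and 23, again all more negative. All cultures were labelled as growing exponentially, and the growth rate of the cultures was not measured in these data.

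The inhibitors of the cyclin-dependent kinases and the D cyclins held larger differences. Cdkn2a, whose locus encodes the inhibitors p16 and p19Arf, was at -2.26 and -1.82 in null BM-MSC and at 5.10 and 5.11 in null ASC (-7.15 ± 0.15, adjusted p = 2.31e-07). Its neighbour Cdkn2b was at -3.71 and -3.68 in null BM-MSC and at 2.38 and 2.35 in null ASC (-6.06 ± 0.04, adjusted p = 5.95e-09). The groups stood more than 6 log2 units apart for both genes, and WT BM-MSC averaged 3.12 and 2.63 for the pair, against WT ASC averages of 4.69 and 2.90. The inhibitors Cdkn1c (2.78 ± 0.15) and Cdkn1a (1.99 ± 0.08) and the cyclin Ccnd1 (2.76 ± 0.07) were higher in null BM-MSC. Among Rb pocket proteins and E2F factors 4 of 12 were higher, Rb1 included, and 5 lower, of which E2f2 (-1.48 ± 0.11) and E2f8 (-0.80 ± 0.07) differed most.

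Targets of p53 gave 16 higher and 9 lower of 27, with a median of 0.45 and 10 higher by at least 2-fold, next to the higher Trp53 signal of null BM-MSC. Perp, a membrane protein of the death response, was at 1.25 and 1.26 in null BM-MSC and at -2.31 and -2.34 in null ASC (3.58 ± 0.05). Cdkn1a, the p21 inhibitor and best-known target, was at 4.02 and 3.91 in null BM-MSC and at 2.06 and 1.87 in null ASC. For both, no array of one group reached the other. Sesn1 (2.04 ± 0.06) and Phlda3 (1.82 ± 0.06) were higher as well. Pmaip1, the death gene Noxa (-1.32 ± 0.09), Plk3 (-1.15 ± 0.07) and the death receptor Fas (-1.09 ± 0.06) were lower. In WT cells 7 were higher and 15 lower, and the tissue difference was more positive in null than in WT cells for 22 of 27 targets and more negative for 1. Whether the remaining Trp53 signal bears on these genes was not tested.

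**Figure D3:**
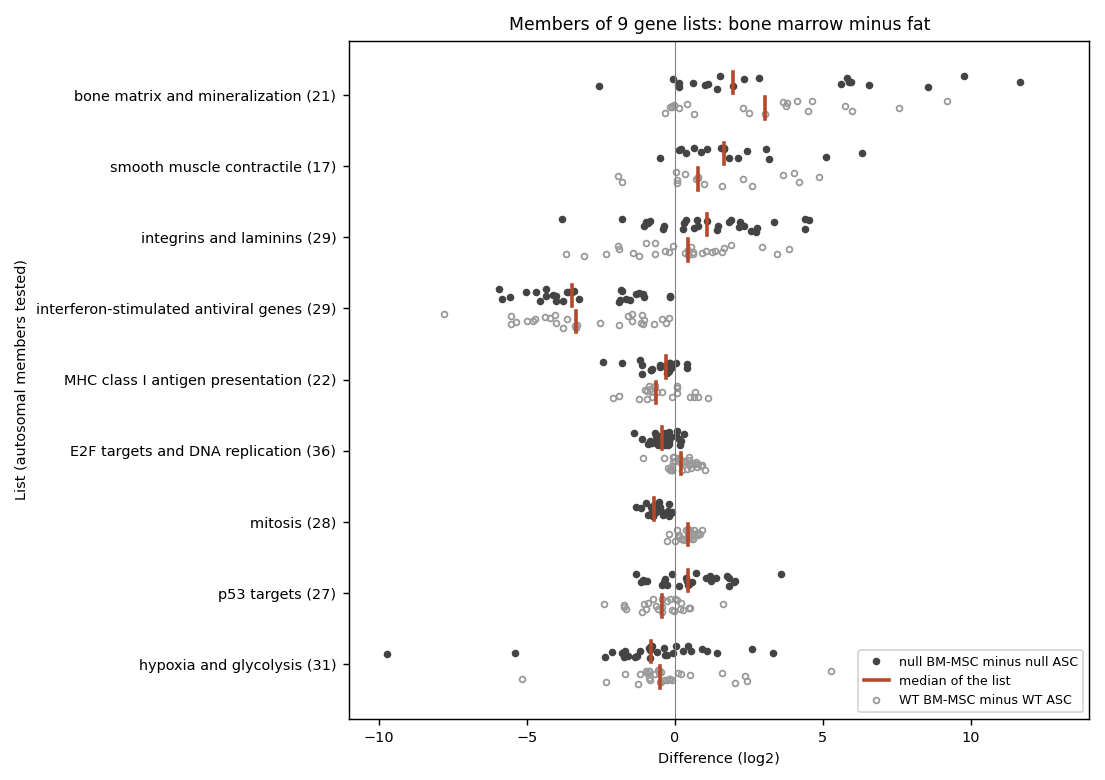
Difference of each tested member (1 point, log2) of 9 gene lists, filled for null BM-MSC minus null ASC and open for WT BM-MSC minus WT ASC, with a vertical tick at the median. The interferon list is centred at -3.49 in null and -3.35 in WT cells, while the medians of the mitosis list, -0.69 in null and 0.46 in WT cells, fall on opposite sides of 0.

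Signalling genes were split by ligand. Among Wnt ligands, receptors and factors 17 of 32 were higher and 6 lower, with a median of 0.66. Lgr5, a receptor for R-spondins, exceeded its null ASC level at least 375-fold, although 1 of its 2 probes did not share the sign, and its relative Lgr6 was at -3.61 and -3.96 in null BM-MSC and at 2.83 and 2.79 in null ASC (-6.60 ± 0.12). The ligand Wnt10b, which favours bone over fat in mice, was at 1.20 and 1.18 in null BM-MSC and at -4.82 and -4.45 in null ASC (5.82 ± 0.12), and Wnt4 (-2.43 ± 0.27) and Wnt5a (-2.18 ± 0.08) were lower. The secreted antagonists divided likewise, with 5 higher and 3 lower of 9, the marrow side holding Wif1 (at least 81.7-fold) and Dkk3 (3.46 ± 0.05) and the fat side Frzb, Dkk2 and Sfrp4 (-2.69 ± 0.13).

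BMP and TGF-beta genes gave 18 higher and 13 lower of 37. Bmp2, which induces bone, was at 1.54 and 1.64 in null BM-MSC and at -4.15 and -4.07 in null ASC (5.70 ± 0.34), and Fst was among the leading genes. Gdf10 (at least 56.9-fold lower), Gdf6 (at least 14.4-fold lower) and the activin subunit Inhbb (-4.65 ± 0.21) stood on the fat side. Of FGF and PDGF genes 12 of 25 were higher and 12 lower, with the receptors Fgfr3 (2.92 and 3.02 in null BM-MSC, -3.85 and -3.33 in null ASC, 6.56 ± 0.22) and Fgfr2 (3.47 ± 0.06) higher and the ligand Fgf10 lower (-2.76 ± 0.08). The IGF-binding proteins Igfbp2 (6.52 ± 0.14) and Igfbp5 (6.18 ± 0.34) were higher, and the RNA-binding proteins Igf2bp3 (at least 88.1-fold) and Igf2bp1 (at least 76.6-fold) were lower, so the IGF list gave 9 in each direction of 19. In the Notch list 5 of 10 were higher and 2 lower, led by the glycosyltransferase Lfng (3.54 ± 0.18). Of the Hedgehog genes 4 of 12 were higher and 4 lower, with Gli2 (-2.38 ± 0.11) and the co-receptor Cdon (-2.19 ± 0.09) low.

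Retinoic acid genes gave 10 higher and 5 lower of 15. The binding proteins Crabp2 (6.92 and 6.93 in null BM-MSC, -0.67 and -0.72 in null ASC, 7.62 ± 0.07) and Crabp1 (4.59 ± 0.20) were higher, while the synthesizing enzymes Aldh1a1 and Aldh1a2 were lower, the second at -2.10 and -2.11 in null BM-MSC and at 2.43 and 2.52 in null ASC (-4.58 ± 0.06). Imprinted growth genes gave 9 higher and 7 lower of 18. H19 was at 7.90 and 7.91 in null BM-MSC and at -0.39 and -0.47 in null ASC, and Mest was higher by 3.86 ± 0.16. Dlk1, a membrane protein that holds back fat formation, was at -3.00 and -2.84 in null BM-MSC and at 2.50 and 2.56 in null ASC (-5.45 ± 0.07), Meg3 from the same locus was lower by a difference of -2.12 ± 0.17, and Peg3 was at least 14.6-fold lower. Axon guidance genes gave 23 higher and 14 lower of 48, led by the semaphorin receptor Plxnc1 (4.83 ± 0.19) on the marrow side and Sema3a (-4.31 ± 0.12) on the fat side.

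Adipogenic genes did not lean to either side, with 9 higher and 8 lower of 20 and a median of -0.002. Lipoprotein lipase, Lpl, was at 3.15 and 3.16 in null BM-MSC and at 7.84 and 7.97 in null ASC (-4.75 ± 0.06). Fabp4, a fatty acid carrier of adipocytes, was also lower (-2.67 ± 0.12), whereas in WT cells it was higher in BM-MSC. Mature adipocyte markers were dim, with Adipoq, Lep, Plin1 and Cidec not well above background on any of the 4 null arrays and a summed signal of 0.190 to 0.233 in null BM-MSC and 0.267 to 0.291 in null ASC. Without Retn, the brightest of them, the order turned, with 0.185 to 0.226 in null BM-MSC and 0.118 to 0.129 in null ASC. Hypoxia and glycolysis genes gave 19 lower and 8 higher of 31, with a median of -0.80. WT cells gave 20 lower and 7 higher (median -0.50). Egln3, an oxygen-sensing hydroxylase, was at least 9.11-fold lower in null BM-MSC, next to Car12 from the same list, and the glucose transporter Slc2a3 (3.32 ± 0.18) and the aldolase Aldoc (2.60 ± 0.08) were higher. Cholesterol and fatty acid synthesis genes gave 13 higher and 4 lower of 24, of which 1 in each direction reached 2-fold, and Dhcr7, which makes the last step to cholesterol, was higher by 1.47 ± 0.07. Among glutathione and redox enzymes 13 of 29 were higher and 7 lower, with Gsta4 (4.32 ± 0.05), Aldh3a1 (3.47 ± 0.13) and the extracellular superoxide dismutase Sod3 (3.21 ± 0.08) against Mgst2 (-4.63 ± 0.08) and Gsta3 (-3.13 ± 0.17). S100 proteins gave 7 higher and 1 lower of 11, with S100a16 (1.71 ± 0.05) next after S100b.

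The labelled cell type was checked against stem cell surface genes. Of 23 such genes 8 were higher and 10 lower, and all 23 passed the brightness filter. The ecto-nucleotidase Nt5e (CD73) was at 1.16 and 1.24 in null BM-MSC and at -3.82 and -3.31 in null ASC (4.76 ± 0.19), and the aminopeptidase Anpep (CD13) was higher by 3.46 ± 0.05. The neurotrophin receptor Ngfr (CD271) was at 2.48 and 2.56 in null BM-MSC and at 6.30 and 6.29 in null ASC (-3.78 ± 0.18). Among markers of other cells, the pericyte sum was 43.2 to 43.6 in null BM-MSC and 14.3 to 14.6 in null ASC. Of 5 pericyte markers tested, however, 2 were higher and 2 lower. Pdgfrb gave 23.4 to 23.9 of the sum in null BM-MSC and 7.31 to 7.64 in null ASC, and Cspg4, described above, is also a member. The osteoclast sum was 75.4 to 75.6 in null BM-MSC and 20.4 to 20.7 in null ASC. Of 7 osteoclast markers tested, 4 were higher and 2 lower, with Mmp9, described above, among the lower. Ctsk gave most of the osteoclast sum, 50.8 to 51.0 in null BM-MSC and 17.7 on each null ASC array. Acp5, the tartrate-resistant phosphatase, made up part of the rest at levels of 4.38 and 4.36 in null BM-MSC and -0.29 and -0.21 in null ASC, whereas Calcr and Dcstamp, which define osteoclasts, were dim on all 4 arrays. The macrophage sum was 24.2 to 25.2 in null BM-MSC and 17.39 to 18.62 in null ASC, with 11 and 10 of 23 markers well above background and Spi1, Tyrobp and Laptm5 dim in both groups. Without Itgam, the brightest macrophage marker, it was 5.83 to 6.08 in null BM-MSC and 6.75 to 6.84 in null ASC. Of 19 macrophage markers tested, 5 were higher and 7 lower. Endothelial markers summed to 17.73 to 18.63 in null BM-MSC and 22.7 to 23.7 in null ASC, with Cdh5 and Tie1 dim in both. Lymphoid and erythroid markers summed to 2.49 to 2.50 in null BM-MSC and 2.36 to 2.44 in null ASC. Skeletal muscle markers summed to 4.80 to 4.85 in null BM-MSC and 0.630 to 0.757 in null ASC, with Acta1 higher in null BM-MSC (3.96 ± 0.10) and Myod1, Myog and Pax7 dim in both. Neural markers summed to 79.8 to 81.1 in null BM-MSC and 93.0 to 95.0 in null ASC, with Sox10 dim in both. Without S100b, a leading gene left out after its values were seen, they summed to 19.3 to 19.7 in null BM-MSC and 93.0 to 94.9 in null ASC, where Ngfr gave 78.1 to 79.1 of the sum. The part of these cell types in the differences was not tested. In bulk RNA fewer cells of a type and less RNA per cell cannot be told apart. Housekeeping genes gave 3 higher and 5 lower of 14, of which 1 reached 2-fold, the glycolytic Pgk1 (-1.34 ± 0.07), whose probe the files place on chromosome 3. With each array scaled to its median the counts were 1 and 1, and leaving out 1 array of the comparison gave 0 to 1 higher and 4 lower.

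The WT arrays share no array with the null comparison, and they showed much of the same tissue difference. WT BM-MSC against WT ASC gave 11687 called genes (54.3%), and 8070 genes were called in both genotypes with the same sign, or 67.5% of the null calls and 69.1% of the WT calls. Opposite signs were found for 840 genes, 400 of them higher and 440 lower in null BM-MSC. At a size of at least 2-fold in both, 2586 genes shared the sign and 53 did not. Across genes the 2 differences correlated at r = 0.807 (Spearman's rho 0.661), with all 8 arrays on 1 slide and the tissues in the same columns. Genes with the largest shared differences included Eva1c, Slc13a5, S100b, Col8a2, Irx3 and Cbr2, a carbonyl reductase at 5.82 and 5.78 in null BM-MSC and at -1.75 and -1.76 in null ASC, on the marrow side. On the fat side they were Cck, Plac8, Aldh1a1, Hoxa11os, Lgr6 and Serpinb6b, a protease inhibitor at -1.22 and -1.63 in null BM-MSC and at 5.02 and 5.22 in null ASC. For Slc13a5 the difference was 9.75 in null and 9.82 in WT cells.

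**Figure D4:**
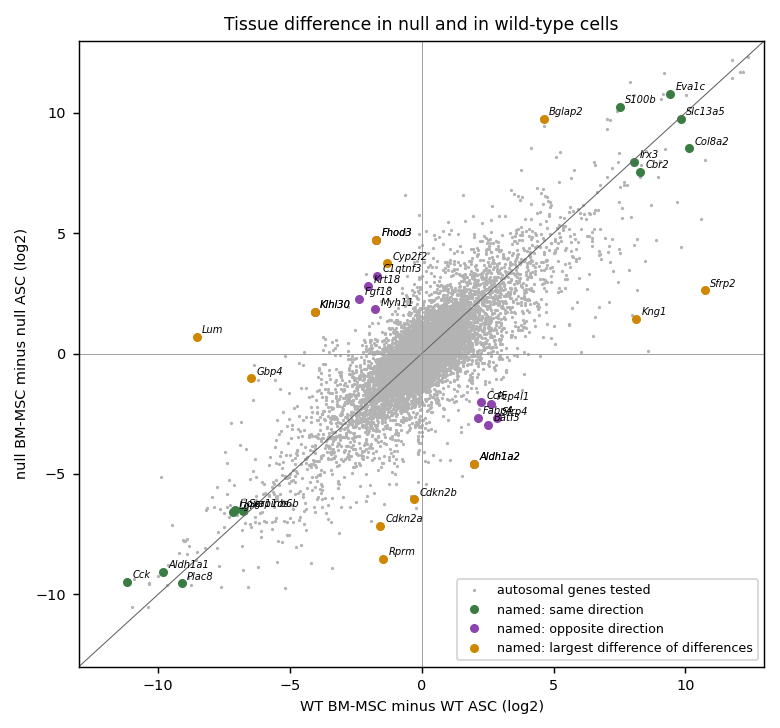
Tissue difference (log2) of each of the 21528 autosomal genes in null cells (vertical axis) against WT cells (horizontal axis), with named genes coloured by how they were chosen and the diagonal marking equal differences. Points follow the diagonal (r = 0.807), while Lum, Fhod3 and Klhl30 lie to its upper left and Sfrp2, Rprm, Aldh1a2 and the Cdkn2 genes to its lower right.

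A different tissue difference in null than in WT cells was called for 6851 genes (31.8%), of which 3341 were more positive and 3510 more negative in null cells. Among the 11957 genes called in the null comparison, 45.4% also passed this test. Genes that were higher in null BM-MSC than in null ASC, yet lower in WT BM-MSC than in WT ASC, included the formin Fhod3 (4.73 ± 0.17 in null and -1.73 in WT cells), C1qtnf3 (3.23 ± 0.23 and -1.69), Krt18 (2.80 ± 0.29 and -2.04), the bone and cartilage growth factor Fgf18 (2.29 ± 0.11 and -2.36), the myosin Myh11 (1.84 ± 0.15 and -1.78) and Klhl30 (1.73 ± 0.17 and -4.06). Fgf18 was at 1.39 and 1.27 in null BM-MSC and at -0.99 and -0.93 in null ASC, so its groups did not overlap. The reverse pattern was found for Aldh1a2 (-4.58 in null and 1.99 in WT cells), the dendritic cell factor Batf3 (-2.96 and 2.52), Sfrp4 (-2.69 and 2.84), Fabp4 (-2.67 and 2.13), Pcp4l1 (-2.07 and 2.63) and the chemokine Ccl5 (-2.02 and 2.25).

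Lumican, Lum, differed from the WT pattern in direction and in size. It was at 2.79 and 2.76 in null BM-MSC and at 2.00 and 2.17 in null ASC (0.69 ± 0.13), whereas in WT cells BM-MSC lay lower by a difference of -8.54, with 1 WT BM-MSC array above background. Other genes kept their sign and differed in size. The Wnt modulator Sfrp2 was at 4.42 and 4.37 in null BM-MSC and at 1.49 and 2.03 in null ASC (2.64 ± 0.21), where the WT difference was 10.74. Kininogen, Kng1, differed by 1.44 ± 0.19 in null and by 8.14 in WT cells. For Cdkn2a the tissue difference was -7.15 in null and -1.57 in WT cells, and for Cdkn2b -6.06 and -0.28. Tests of these differences are given with the closing values.

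Calls were spread unevenly over the autosomes. Chromosome 7 had the lowest median difference, -0.26, with 14.4% of its 1629 genes higher and 45.7% lower. Chromosomes 4 (-0.21, 20.3% higher and 40.6% lower) and 19 (-0.21, 16.7% and 42.5%) came next. With no filter on dim probes these 3 were still lowest but lay near the median of all genes, at -0.04 relative to it for each and with chromosome 4 first, in place of -0.25, -0.20 and -0.20. At the other end chromosomes 3 (0.18, 37.9% higher and 17.7% lower), 12 (0.18, 38.0% and 17.8%) and 13 (0.17, 38.0% and 19.1%) leaned to the marrow side. These shares stand beside 26.2% higher and 29.3% lower over all autosomes. The WT medians had much the same order, at -0.24, -0.14 and -0.18 for chromosomes 7, 4 and 19 and at 0.13, 0.09 and 0.21 for chromosomes 3, 12 and 13, and over the 19 autosomes null and WT medians correlated at r = 0.926 on arrays of 1 slide. Over the same 19 chromosomes the median GC content of the probes correlated with the median null difference at r = -0.486, and over the 21528 genes at -0.003. In 5 equal bins of genes by probe GC content, from low to high, 32.7%, 29.3%, 23.9%, 24.2% and 20.9% were called higher. The shares called lower in the same bins were 30.2%, 30.6%, 28.0%, 31.7% and 26.1%. The share of probe composition in the chromosome pattern was not tested.

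**Figure D5:**
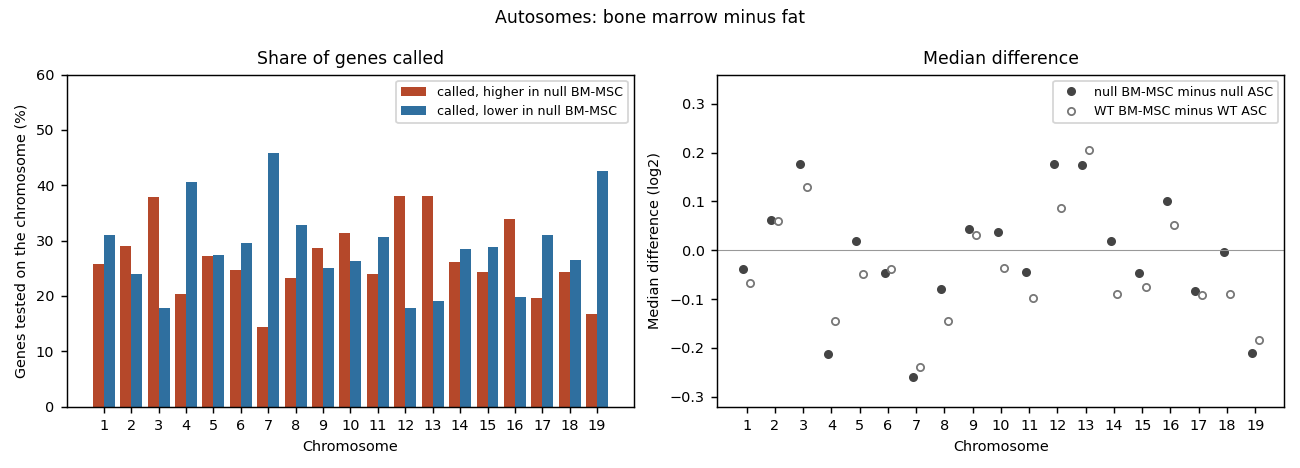
Share of tested genes called higher (red) or lower (blue) in null BM-MSC on each autosome (left, percent) and the median difference (right, log2), filled for null and open for WT cells. Chromosomes 7, 4 and 19 lie lowest on the right, at -0.26, -0.21 and -0.21 in null cells, and 3, 12 and 13 highest, at 0.18, 0.18 and 0.17.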

How the data were processed

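Total RNA of each culture was labelled with Cy3 and hybridised to 1 Agilent mouse array. Per the file headers, the authors read the slides with Feature Extraction 10.7.3.1. Spot intensity in their deposited scanner output is background-subtracted, and probes are placed on mm9. The deposited series matrix reads as log2 with medians of 5.04 to 5.06, correlates with the scanner values at r = 0.989 to 0.993 and served as an alternative; how it was normalized is not stated, and the submitters' processing notes name limma.

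From the scanner files, outlier spots were dropped, and log2 processed signals were averaged per probe and set relative to the 75th percentile of their array. Of 55681 probes, 37 had no usable spot on some array. Names came from RefSeq by accession (27214 probes), symbol (3578), synonym (565) or letter case (41), and from the file otherwise (24246). The brightest probe stood for a gene, which was tested if well above background on both arrays of a group. All 5 groups of 2 arrays were fitted with limma 3.58.1 in R 4.3.3 (degrees of freedom: residual 5, prior 1.35), and p-values were two-sided with Benjamini-Hochberg adjustment over all chromosomes. The fit was checked on simulated data. The number of arrays limits the precision.

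Named genes were the targeted genes, the 12 largest differences per direction measured in both groups, 6 bounds per direction, 6 genes per direction shared with, opposite to or most different from WT, up to 4 members per list and up to 3 against its direction, and the Hox genes; accession, clone and model names were skipped. Members and all 44 gene lists and 9 marker lists were chosen with earlier results of these data known, so no list was tested. Some genes that the rule names are not reported here.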

Additional observations from a re-analysis of the deposited data

Results flagged for a closer look

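The tissue difference (BM-MSC minus ASC, log2) differed between null and WT cells by the test of that difference for each of the following named genes, taken up because their effects under the same contrast were unlike. More positive in null cells were Lum (9.23 ± 0.18), Fhod3 (6.46 ± 0.24), Klhl30 (5.79 ± 0.25), Gbp4 (5.46 ± 0.32), Bglap2 (5.13 ± 0.19), Cyp2f2 (5.08 ± 0.15), C1qtnf3 (4.93 ± 0.32), Krt18 (4.84 ± 0.41), Fgf18 (4.65 ± 0.15) and Myh11 (3.62 ± 0.21). More negative were Sfrp2 (-8.11 ± 0.29), Rprm (-7.08 ± 0.31), Kng1 (-6.70 ± 0.27), Aldh1a2 (-6.57 ± 0.09), Cdkn2b (-5.78 ± 0.06), Cdkn2a (-5.58 ± 0.21), Sfrp4 (-5.54 ± 0.18), Batf3 (-5.48 ± 0.10), Fabp4 (-4.80 ± 0.17), Pcp4l1 (-4.70 ± 0.16) and Ccl5 (-4.27 ± 0.13). Their adjusted p-values from limma lay between 4.34e-07, for Cdkn2b, and 0.000398, for Krt18. The guanylate-binding protein Gbp4 differed by -1.02 in null and -6.47 in WT cells, and the cytochrome Cyp2f2 by 3.76 in null and -1.32 in WT cells. The labels do not say whether WT cultures were primed, so loss of the targeted genes and priming cannot be told apart in these differences. Null and WT BM-MSC also differed in Xist, and the part of this was not tested.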

How the results depend on the processing

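The alternatives changed the scaling, background correction, source of values, dim-probe filter, probe rule, arrays in the fit and set of genes adjusted over. The count of genes called between null BM-MSC and null ASC lay within 1.5 times of 11957 in every one, as did the WT count of 11687. The count for the difference between the null and the WT tissue difference, 6851, was 4184 when each array was scaled to its median, which also put 56.1% of null calls on the higher side in place of 47.2%; the cause was not tested. Leaving out 1 array gave 10123 to 10641 calls in null cells, 9913 to 10620 in WT cells and 5121 to 6194 for the difference. Duplicate numbers did not pair the samples, as deviations of same-numbered null cultures correlated at -0.006, and a fit with the replicate block called 11726, 11422 and 6381 genes. With the mean of the probes of a gene, Gusb turned to -0.37 (0.17 otherwise) and Mcam to 0.55 (-0.30 otherwise), since their probes disagreed. Over 4344 repeats of named genes, 4268 kept direction and call, 72 lost the call, 2 gained it, and Gusb and Mcam reversed. Some alternatives altered only the spread or the adjustment, so no direction could change in them. Of the 297 named genes, 186 were bright on all 10 arrays, and the others did not enter the alternative restricted to such genes. Where only genes bright on all 10 arrays were tested, fewer members entered, and the counts fell to 11 higher Wnt genes, 8 lower positional factors, 6 lower interleukin genes, 2 lower Hox D genes and 1 lower mesothelial marker. With arrays scaled to their median, 5 elastic fibre genes and 1 cholesterol and fatty acid gene were lower, and without null BM-MSC replicate 1 it was 4 collagens. Signal over background limits the dim genes, for which bounds alone are given.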
